A study of Mus musculus with 24 samples.

Results

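Hox genes encode homeodomain transcription factors that give cells a position along the body and the limbs. In the mouse they lie in clusters A to D, on 4 chromosomes, and each gene's number gives its place in its cluster, low at the 3′ end and high at the 5′ end. The genes were taken by name, from the accession that the array's design gives each probe: 39 Hox genes among the 20170 genes with a name, with the brightest probe kept where a gene had more than 1. All 39 were measured, and 37 of them passed the filter on dim genes and entered the tests. Hoxb1 and Hoxd1 did not, because no group had either of them well above background on all its arrays.

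The RNA came from mouse embryonic fibroblast lines, on 24 Agilent arrays of a single colour, from a study of the integrated stress response, in which kinases such as PERK phosphorylate eIF2α and raise translation of ATF4. Perk-null, Atf4-null and eIF2a A/A cells (per the series title, an S51A mutant of eIF2α, the residue the kinases phosphorylate) were compared after 2 µg/mL tunicamycin for 12 h by their labels (the protocol names 12 or 24 h) and untreated, with 2 arrays per state. Tunicamycin blocks N-glycosylation and so causes endoplasmic reticulum stress. Cells with the transgene Fv2E-PERK, a PERK kinase domain that a synthetic ligand dimerises, were given AP for 12 h, at a dose the labels do not give, or left untreated, also with 2 arrays per state. Wild-type cells had 4 tunicamycin and 4 untreated arrays. The labels name no shared background allele, no promoter for the transgene and no number of clones or embryos per line. Separate cultures are not stated for replicates either, so each p-value speaks only of the spread between arrays, and that spread may be technical.

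The arrays were grouped into 3 scan runs by the calendar year of the scan date in the file headers. The labels name no run. The 24 arrays lay in 8 scan sessions on 6 slides, so a run can hold more than 1 session. The Atf4-null arrays shared a run with wild-type replicates 1 and 2, the Perk-null arrays shared one with wild-type replicates 3 and 4, and the Fv2E-PERK and eIF2a A/A arrays made up the third, each line on a slide of its own. The wild-type arrays of the Atf4 run and of the Perk run are kept apart here, since they did not carry the same sex-linked RNAs. Xist, the RNA that coats the inactive X chromosome, averaged 1.66 in the Atf4-run wild type and was not well above background on either array of the Perk-run wild type. The Y-linked Eif2s3y was not above background in the Atf4-run wild type and averaged 2.85 in the Perk-run wild type. A genotype is thus set here against 1 other line, and the genotype cannot be told apart from the origin of the cells. All levels are log2 processed signals relative to the 75th percentile of their array, and "above background" means flagged well above background by the scanning software. The 75th percentile lay between 111 and 418 intensity units, and 45.1% to 58.2% of probes were above background. The lowest percentile, 111, belonged to the Atf4-null tunicamycin replicate 1. The checks of the altered genes were as follows: untreated Atf4 signal was 2.79 and -0.05 in Atf4-null cells and 7.22 and 7.20 in the Atf4-run wild type. Eif2ak3, which encodes PERK, was -0.24 on average in Perk-null cells and 0.92 in the Perk-run wild type, a smaller gap, and whether its probe lies in the deleted part is not known. All 15 fibroblast markers looked at, among them Col1a1 and Vim, were above background on both untreated arrays of the Atf4-run wild type, and 13 or 14 of them in each other line.

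During development Hox genes are switched on in the order of their place in the cluster, so that the 3′ members mark anterior and the 5′ members posterior or distal levels. Fibroblasts are known to keep in culture much of the Hox pattern of the site they came from, held in part by Polycomb and trithorax proteins on the clusters. The posterior genes of the A and D clusters are also used in the limb, where numbers 9 to 13 mark the segments from the shoulder or hip outward.

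To show what kind of start region the line differences concern, the window from 250 bases before to 50 bases after the transcription start is printed for the member of each cluster with the widest range over untreated lines among those that have a single such window, from RefSeq on GRCm38.p6. CG dinucleotides, the sites of DNA methylation and a mark of CpG islands, are in capitals.
Hoxa11 (chr6:52245761-52246060, minus strand): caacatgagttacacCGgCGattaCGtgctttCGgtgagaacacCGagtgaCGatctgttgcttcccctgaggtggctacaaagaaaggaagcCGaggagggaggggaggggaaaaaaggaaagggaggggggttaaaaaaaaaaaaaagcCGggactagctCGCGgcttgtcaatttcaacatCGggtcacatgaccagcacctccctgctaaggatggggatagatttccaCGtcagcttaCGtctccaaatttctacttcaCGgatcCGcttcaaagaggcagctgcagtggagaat
Hoxb4 (chr11:96318017-96318316, plus strand): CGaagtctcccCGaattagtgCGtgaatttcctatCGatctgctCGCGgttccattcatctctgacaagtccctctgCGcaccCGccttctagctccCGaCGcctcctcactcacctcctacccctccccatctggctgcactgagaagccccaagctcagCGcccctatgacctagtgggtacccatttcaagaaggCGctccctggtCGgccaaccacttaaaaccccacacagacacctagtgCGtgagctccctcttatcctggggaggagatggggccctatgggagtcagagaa
Hoxc4 (chr15:103034145-103034444, plus strand): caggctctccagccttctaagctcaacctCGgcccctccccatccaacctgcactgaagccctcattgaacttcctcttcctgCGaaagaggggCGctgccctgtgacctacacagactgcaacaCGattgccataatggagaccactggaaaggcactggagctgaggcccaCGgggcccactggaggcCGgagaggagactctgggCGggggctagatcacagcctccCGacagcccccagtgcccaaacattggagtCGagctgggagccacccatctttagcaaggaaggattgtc
Hoxd13 (chr2:74667975-74668274, plus strand): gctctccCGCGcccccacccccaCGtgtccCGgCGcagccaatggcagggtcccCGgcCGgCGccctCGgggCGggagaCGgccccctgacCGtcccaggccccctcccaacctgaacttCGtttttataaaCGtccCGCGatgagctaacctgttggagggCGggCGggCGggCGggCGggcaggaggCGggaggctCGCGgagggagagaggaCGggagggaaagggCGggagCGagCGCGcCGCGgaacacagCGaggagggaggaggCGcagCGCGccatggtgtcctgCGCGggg

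The window of Hoxd13 holds 37 CG dinucleotides, more than 94.4% of the 32841 promoter windows in the same table. Those of Hoxa11, Hoxb4 and Hoxc4 hold 15, 14 and 9. Over the 24 windows that the table lists for 22 Hox genes the median was 14.5, against 7 over all windows. The motif TGATNNAT, a form of the joint site of Hox proteins and their PBX partners, was searched on both strands. It was found in 4 of the 24 Hox windows (16.7%), those of Hoxa2, Hoxb1, Hoxb8 and 1 of the 2 windows of Hoxd11, and in 8.85% of all windows. None of the windows printed holds it, which says only that these letters are not in these windows. A second motif searched the same way, TTTATNG, was found in 2 of the 24 Hox windows (8.33%) and in 10.9% of all windows.

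Each untreated line showed its own set of Hox genes. The number above background on both untreated arrays was 8 of 39 in Perk-null cells, 26 in Atf4-null cells, 18 in the Atf4-run wild type, 20 in the Perk-run wild type, 31 in Fv2E-PERK cells and 16 in eIF2a A/A cells. The A cluster was read in every line, with 8 to 10 of its 11 members. The B cluster had 0 of its 10 members above background in Perk-null cells, 7 in Atf4-null cells, 0 in the Atf4-run and 4 in the Perk-run wild type, 9 in Fv2E-PERK and 7 in eIF2a A/A cells. The C cluster had 8 of 9 in Atf4-null cells, 3 in the Atf4-run wild type, 5 in Fv2E-PERK cells and 0 in the other lines. The D cluster had 0 of 9 in Perk-null cells, 1 in Atf4-null cells, 5 in the Atf4-run and 6 in the Perk-run wild type, 7 in Fv2E-PERK cells and 0 in eIF2a A/A cells. Split by position, the posterior members, numbers 9 to 13, were above background for 1 of 16 in Perk-null cells, 10 in Atf4-null cells, 9 in each wild type, 11 in Fv2E-PERK and 3 in eIF2a A/A cells.

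**Figure D1:**
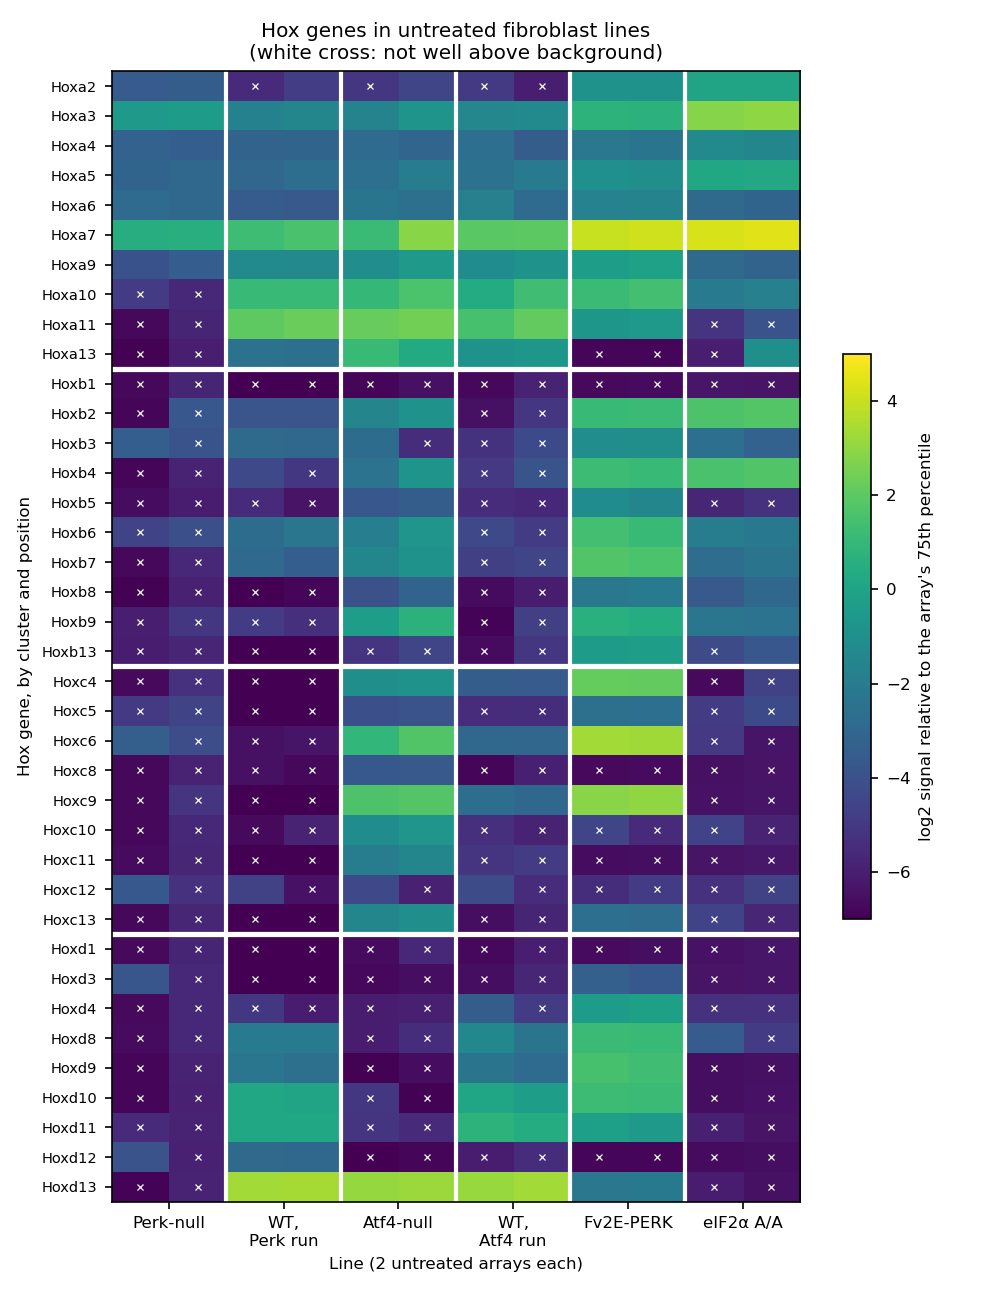
Heat map of Hox genes, in rows by cluster (A to D) and number, over the 12 untreated arrays, 2 columns per line; colour gives the log2 signal relative to the 75th percentile of the array, and a white cross marks a value not well above background. The Perk-null columns are crossed from Hoxa10 downward for most genes, the Atf4-null columns are read through the C cluster but not from Hoxd1 to Hoxd12, and the Fv2E-PERK columns hold the most uncrossed cells.

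The spread over lines was wider for the Hox genes than for all named genes. The range of the 6 untreated line means, highest minus lowest, had a median of 5.49 log2 units over the 39 Hox genes and of 1.29 over all 20170 named genes. Over the 37 tested Hox genes it was 5.89, against 1.33 over the 14880 genes tested. Across the 39 Hox genes, the untreated profiles of the Atf4-run and Perk-run wild types had a Pearson correlation of 0.876, and those of Perk-null and eIF2a A/A cells one of 0.703. The other 13 pairs of lines ranged from 0.226 to 0.516, while over the 14843 other tested genes all 15 pairs lay between 0.908 and 0.965. Between the 2 untreated arrays of 1 line the Hox correlation was 0.886 to 0.997. These correlations are across genes of the same arrays, and genes are not independent replicates.

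The anterior and central genes of the A cluster were the common ground of the lines. Hoxa3, Hoxa4, Hoxa5, Hoxa6, Hoxa7 and Hoxa9 were above background on all 12 untreated arrays. Among these genes the range of the line means was narrowest for Hoxa4, at 1.90 log2 units, and widest for Hoxa3. Hoxa4, a gene of the neck vertebrae, lay between -3.45 and -1.30, and Hoxa6, of the trunk, between -3.67 and -1.63. Hoxa5, which acts in the lung and the neck to chest border, was at -0.98 and -1.06 in Fv2E-PERK cells, at 0.21 and 0.23 in eIF2a A/A cells, the highest line, and at -1.94 or lower elsewhere. Hoxa7, of the trunk, was 0.49 and 0.55 in Perk-null cells, the lowest line, 4.01 and 4.15 in Fv2E-PERK cells, and 4.26 and 4.44 in eIF2a A/A cells. Hoxa3, which acts in the pharyngeal arches and the thymus, was 0.77 and 0.71 in Fv2E-PERK cells and 2.82 and 2.94 in eIF2a A/A cells. It was -0.55 and -0.41 in Perk-null cells and between -1.73 and -0.80 in the Atf4-null and both wild-type lines. Hoxa2, which patterns the second pharyngeal arch and the hindbrain, was at -0.86 and -0.84 on the Fv2E-PERK arrays and at 0.01 on both eIF2a A/A arrays. It was at -3.53 and -3.47 in Perk-null cells and at -4.48 or lower elsewhere, mostly not above background. Hoxa2 and Hoxa3 were thus highest in the eIF2a A/A cells.

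The posterior A genes separated the lines sharply. Hoxa10, a gene of the thigh and upper arm level and of the uterus, was not above background in Perk-null cells, at -4.91 and -5.68. It read 0.39 to 1.59 in the Atf4-null, Fv2E-PERK and both wild-type lines and -2.10 and -1.76 in eIF2a A/A cells. Hoxa11, which with Hoxd11 patterns the forearm and lower leg, was not above background in Perk-null cells, at -6.73 and -5.74. It read 2.19 and 2.42 in Atf4-null cells, 1.49 and 2.12 in the Atf4-run wild type, and 2.00 and 2.24 in the Perk-run wild type. In Fv2E-PERK cells it read -0.63 and -0.55, and it was not above background in eIF2a A/A cells (-5.17 and -3.93). Hoxa13, the gene of the hand, foot and genital tubercle, was not above background in Perk-null cells and read 1.11 and 0.35 in Atf4-null cells, -0.89 and -0.63 in the Atf4-run wild type, and -2.51 and -2.56 in the Perk-run wild type. It was not above background in Fv2E-PERK cells, and the 2 eIF2a A/A arrays disagreed, with -1.01 above and -6.01 not above background. A second, dimmer Hoxa13 probe, above background on 11 of the 24 arrays, did not show the Perk-null gap, with a mean of -4.19 in Perk-null cells and -3.92 in the Perk-run wild type. The antisense RNA Hoxa11os, transcribed across Hoxa11, was high in the same 3 lines. Its mean was -3.87 in Perk-null cells, 5.18 in Atf4-null cells, 4.38 and 4.05 in the Atf4-run and Perk-run wild types, 1.07 in Fv2E-PERK and -3.26 in eIF2a A/A cells.

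The B cluster was read most fully in Fv2E-PERK cells. Hoxb2, a hindbrain segment gene, read 1.14 and 1.20 in Fv2E-PERK cells and 1.64 and 1.79 in eIF2a A/A cells. It was not above background in Perk-null cells or the Atf4-run wild type, read -1.54 and -0.86 in Atf4-null cells, and -3.86 and -3.85 in the Perk-run wild type. Hoxb4, of the neck vertebrae and of blood stem cells, read 1.23 and 1.08 in Fv2E-PERK, 1.56 and 1.76 in eIF2a A/A and -2.41 and -0.79 in Atf4-null cells. The 2 eIF2a A/A and 2 Fv2E-PERK arrays were the 4 highest for both genes. Hoxb7, a gene of the trunk, read 1.72 and 1.61 in Fv2E-PERK cells, -1.48 and -0.84 in Atf4-null cells, -2.71 and -2.40 in eIF2a A/A cells, and -2.88 and -3.41 in the Perk-run wild type. Hoxb9, of the ribs and lower trunk, read 0.63 and 0.42 in Fv2E-PERK, -0.30 and 0.69 in Atf4-null and -2.28 and -2.41 in eIF2a A/A cells, and was not above background in the other 3 lines. Hoxb13, the most posterior member of the cluster and a gene of the tail bud and prostate, was above background on both arrays of Fv2E-PERK cells alone, at -0.37 and -0.27. Hoxb6, of the trunk, was highest in Fv2E-PERK cells too, at 1.40 and 1.11, and read -1.81 and -0.72 in Atf4-null, -1.94 and -2.16 in eIF2a A/A and -2.75 and -2.28 in Perk-run wild-type cells. Hoxb5 was above background in Fv2E-PERK cells (-1.18 and -1.50) and Atf4-null cells (-3.73 and -3.44) alone, and Hoxb8 in these 2 lines and eIF2a A/A cells, between -4.01 and -1.99. Hoxb3 was above background on both arrays of Fv2E-PERK (-1.11 and -1.07), eIF2a A/A (-2.62 and -3.24) and Perk-run wild-type cells (-2.86 and -2.99), but its second probe was highest in eIF2a A/A cells. Hoxb1 was not above background in any line.

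The C cluster was read in 3 lines. Hoxc4 read 2.17 and 2.13 in Fv2E-PERK cells, -1.03 and -0.84 in Atf4-null cells, and -3.45 and -3.53 in the Atf4-run wild type. Hoxc6, a gene of the thorax, read 3.35 and 3.27 in Fv2E-PERK, 0.93 and 1.76 in Atf4-null and -2.93 and -3.04 in Atf4-run wild-type cells. Hoxc9 read 2.89 and 3.02 in Fv2E-PERK, 1.64 and 1.77 in Atf4-null and -2.65 and -2.96 in Atf4-run wild-type cells. For these 3 genes the order was the same, and neither eIF2a A/A cells nor the Perk-run wild type had them above background on any untreated array. Hoxc6 was at -3.37, above background, on 1 of 2 Perk-null arrays. Hoxc10 and Hoxc11, which are lumbar and hindlimb genes, and Hoxc8 were above background on both arrays of Atf4-null cells alone: Hoxc10 read -1.18 and -0.73, Hoxc11 -1.98 and -1.48, and Hoxc8 -3.67 and -3.63. Hoxc5 was read in Fv2E-PERK cells (-2.57 and -2.61) and Atf4-null cells (-4.06 and -3.95), and Hoxc12 on 1 array each of Perk-null, Atf4-null and both wild-type cells, at -4.62 to -3.68. Hoxc13, known for hair and nails, was read in Atf4-null cells (-1.51 and -1.03) and Fv2E-PERK cells (-2.62 and -2.72).

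The D cluster showed the most uneven pattern along its length. Hoxd13, a digit gene, was not above background in Perk-null cells, at -6.87 and -5.79. It read 3.10 and 3.18 in Atf4-null cells, 3.14 and 3.32 in the Atf4-run wild type, and 3.33 and 3.39 in the Perk-run wild type. In Fv2E-PERK cells it read -2.23 and -2.14, and it was not above background in eIF2a A/A cells (-6.05 and -6.47). In Atf4-null cells none of Hoxd8 to Hoxd11 was above background, whereas both wild types had all 4. Hoxd10 read -5.07 and -6.93 in Atf4-null cells, 0.08 and -0.27 in the Atf4-run wild type, 0.14 and -0.01 in the Perk-run wild type, and 1.25 and 1.17 in Fv2E-PERK cells. Hoxd11 read -5.18 and -5.56 in Atf4-null cells, 0.77 and 0.42 in the Atf4-run wild type, 0.20 and 0.16 in the Perk-run wild type, and -0.22 and -0.57 in Fv2E-PERK cells. Hoxd8 read 1.18 and 1.09 in Fv2E-PERK cells, -1.41 and -2.38 in the Atf4-run and -2.08 and -2.04 in the Perk-run wild type. Hoxd9 read 1.51 and 1.34 in Fv2E-PERK cells, -2.38 and -2.82 in the Atf4-run and -2.27 and -2.58 in the Perk-run wild type. Fv2E-PERK cells alone had Hoxd3 and Hoxd4 above background on both arrays, with Hoxd4 at -0.37 and -0.16, and alone had the antisense RNA Hoxd3os1, at a mean of -0.29. Hoxd12 was above background on both arrays of the Perk-run wild type alone, at -2.85 and -2.95.

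**Figure D2:**
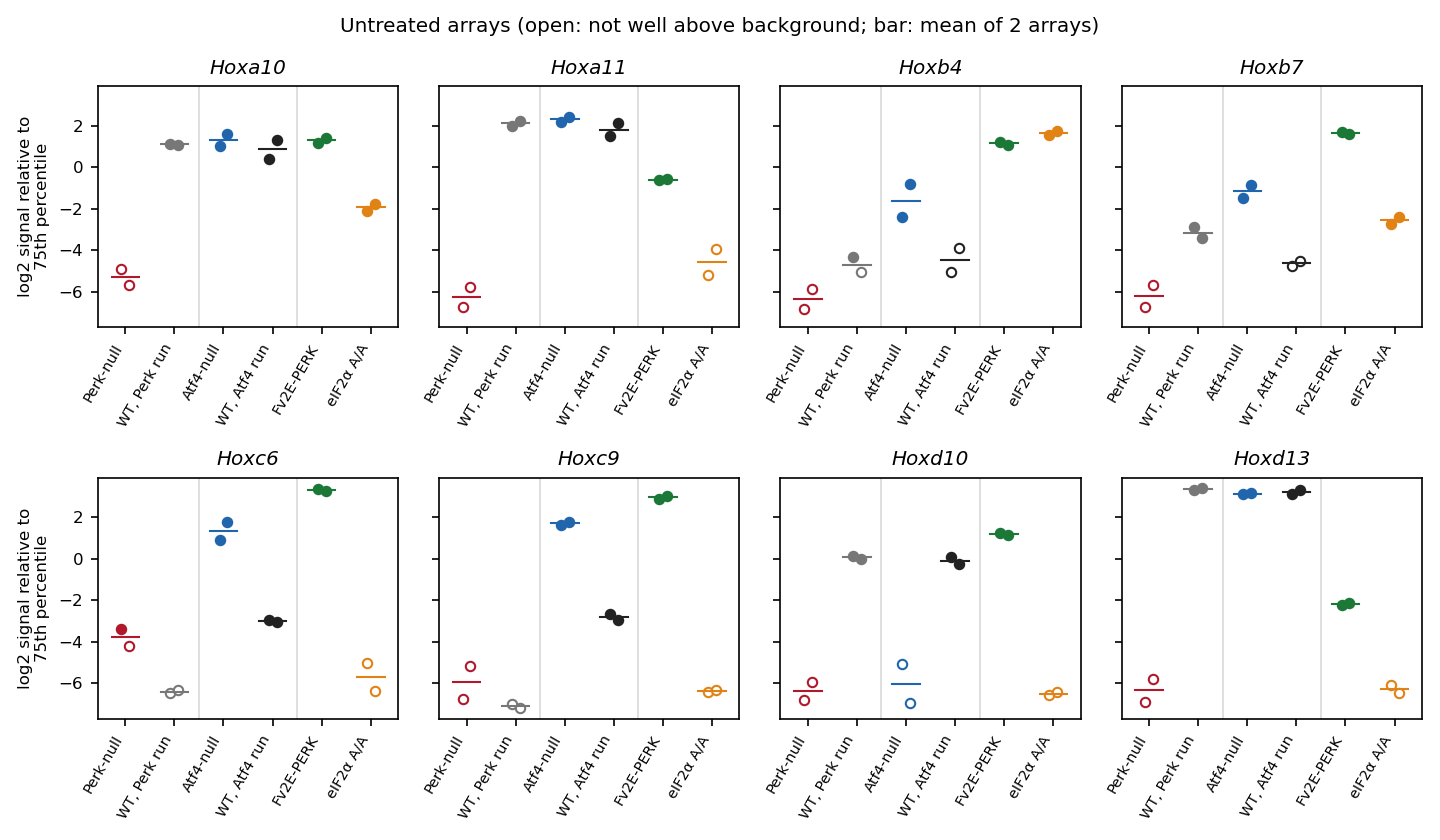
Log2 signal relative to the array's 75th percentile for 2 genes of each cluster on the 12 untreated arrays; each point is 1 array, the bar is the mean of 2, open points are not well above background, and grey lines part the scan runs. Hoxd13 lies between 3.10 and 3.39 in Atf4-null cells and both wild types, while Hoxd10 lies at or under -5.07 in Atf4-null cells and near 0 in the wild types.

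Perk-null cells had none of Hoxa10, Hoxa11 and Hoxd8 to Hoxd13 above background on both untreated arrays, whereas their run's wild type had all of these. Of the 37 tested Hox genes, 8 were higher and 13 lower in Perk-null cells, in a comparison in which 39.8% of all tested genes were called (15.7% higher and 24.2% lower) at an adjusted p under 0.05 (limma, Benjamini-Hochberg over 14880 genes). With quantile normalization 5 were higher and 13 lower. For 12 of the 13 lower genes the wild type was above background on both arrays, and for 10 of these the Perk-null cells were not above background on either array, so that only a least fold can be given. It is the wild-type mean over the higher of the dim signal and the lowest signal above background on the same array. Hoxd13 was at least 199-fold lower (adjusted p = 2.97e-10), Hoxa11 at least 84.4-fold lower (3.8e-09), Hoxa10 at least 41.7-fold lower (1.87e-08), Hoxd11 at least 22.0-fold lower (9.42e-06) and Hoxd10 at least 20.3-fold lower (4.94e-07). Hoxa9, measured on both sides, differed by -2.38 ± 0.24 (SE, adjusted p = 3.26e-06), with -3.97 and -3.40 in Perk-null cells and -1.25 and -1.35 in the wild type. Nearer the other end of the A cluster, Hoxa2 was higher by 1.65 ± 0.33 (limma, adjusted p = 0.00119) and Hoxa3 by 1.14 ± 0.23 (0.00124). Of the genes called higher, 5, all of the C and D clusters, were above background on 1 or none of the 2 Perk-null arrays and are not read as differences.

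Perk-null cells also differed in markers of other cell types. The 7 epithelial markers summed to 44.3 and 53.8 times the 75th percentile signal in Perk-null cells, against 0.933 and 0.938 times in the Perk-run wild type, and 4 of the 7 were called higher. Most of the sum was Krt18, with 5.43 and 5.71 in Perk-null cells and -0.74 and -0.65 in the wild type. Cdh1, the gene of E-cadherin, read -0.84 and -0.14 in Perk-null cells and was not above background in the wild type. Of the 15 fibroblast markers 11 were lower and 1 higher, and their sum was 258 and 256 against 1060 and 1039 times the 75th percentile signal. In the other 4 lines the epithelial sum lay between 0.239 and 1.40. The 5 skeletal muscle markers summed to 0.320 and 0.383 in Perk-null cells, against 5.21 and 5.22 in the wild type. They did not move together: Acta1 was lower by 5.85 log2 units, whereas Myog was at least 5.16-fold higher. Des was called higher too, with 1 of 2 Perk-null arrays above background. Sex-linked RNAs differed as well: Xist was at least 32.5-fold higher in Perk-null cells than in their run's wild type. Eif2s3y was at least 139-fold and Ddx3y at least 64.8-fold lower. The part of these in the Hox differences was not tested. In bulk RNA, fewer cells of a type and less RNA per cell cannot be told apart. Perk-null untreated replicate 2 was scanned in another session than the wild type, and its deposited scan is named for a 24 h mock, which its label does not say. With the Perk-null means taken in the wild type's scan session, Hoxd13, Hoxa11 and Hoxa10 were still called lower.

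Between Atf4-null cells and their run's wild type, the calls lay in the B, C and D clusters. Of the 37 tested, 14 were higher and 5 lower in Atf4-null cells, where 23.8% of all tested genes were called (11.3% higher and 12.5% lower). The 14 higher genes were 7 of the B and 7 of the C cluster, all above background on both Atf4-null arrays. For 11 of them the wild type was not above background on either array: Hoxb9 was at least 21.6-fold higher (adjusted p = 2.9e-05), Hoxc10 at least 9.77-fold (2.19e-05), Hoxb7 at least 8.49-fold (2.62e-05) and Hoxb2 at least 8.24-fold (0.000258). The 3 measured on both sides were Hoxc4, higher by 2.56 ± 0.49, Hoxc6 by 4.33 ± 0.66 and Hoxc9 by 4.51 ± 0.50 (limma, adjusted p = 0.00151, 0.000224 and 1.24e-05). The 4 lower genes with a measured wild type were neighbours, Hoxd8 to Hoxd11: Hoxd11 was at least 41.7-fold lower (1.42e-05), Hoxd10 at least 25.8-fold (2.25e-06), Hoxd8 at least 7.43-fold (4.76e-05) and Hoxd9 at least 4.56-fold (2.65e-06). None of the 11 A genes was called by limma, nor had an unadjusted p under 0.05, which does not show that the lines are alike there. Hoxa13 was higher on both Atf4-null arrays than on both wild-type arrays, with a difference of 1.49 ± 1.02 (limma, adjusted p = 0.337), and its standard error includes the 2 eIF2a A/A arrays that disagreed. Hoxa11os was higher by 0.80 ± 0.27 (0.0441). Hoxd13 differed by less than its standard error. Of the 15 fibroblast markers 6 were higher and 4 lower, with sums of 1388 and 834 times the 75th percentile signal in Atf4-null cells and 696 and 800.1 times in the wild type, and the part of these in the Hox differences was not tested.

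Fv2E-PERK cells had a fuller set than the eIF2a A/A cells of the same run, with 22 of the 37 tested Hox genes higher and 5 lower (35.7% of all tested genes called, 16.5% higher and 19.2% lower). All 22 higher genes were above background on both Fv2E-PERK arrays, and 13 of them on neither eIF2a A/A array. Hoxc6 was at least 206-fold higher (adjusted p = 9.51e-08), Hoxc9 at least 161-fold (3.55e-09), Hoxc4 at least 92.3-fold (2.04e-08), Hoxd9 at least 55.7-fold (1.55e-09) and Hoxd10 at least 48.0-fold (5.77e-08). The lower genes were of the A cluster: among them Hoxa3 differed by -2.14 ± 0.23 (limma, adjusted p = 5.31e-06), Hoxa5 by -1.24 ± 0.26 (0.00184) and Hoxa4 by -0.86 ± 0.26 (0.0196). The A cluster thus turned over along its length, with lower values at Hoxa3 to Hoxa5 and higher ones at Hoxa6 and Hoxa9 to Hoxa11. The turn was not in strict order. Hoxa7, between the higher genes, read 4.01 and 4.15 in Fv2E-PERK cells and 4.26 and 4.44 in eIF2a A/A cells. The call on Hoxa13 rests on 1 eIF2a A/A array. Markers moved with this comparison too: of the 15 fibroblast markers 1 was higher and 11 lower, with sums of 529 and 490.3 times the 75th percentile signal in Fv2E-PERK cells and 1436 and 1379.6 times in eIF2a A/A cells. The muscle markers summed to 0.730 and 0.750 in Fv2E-PERK cells and 6.18 and 6.06 in eIF2a A/A cells, where Acta1 was lower by 4.25 ± 0.35 in Fv2E-PERK cells and Des at least 7.60-fold higher. The 5 neural markers summed to 4.01 and 4.20 in Fv2E-PERK cells and 1.86 and 1.77 in eIF2a A/A cells. They were mixed: Tubb3 was higher by 1.55 ± 0.51 and Nefl at least 2.38-fold higher in Fv2E-PERK cells. Map2 was lower by 2.19 ± 0.17, and Sox10 and Gfap were not called. Xist was at least 47.4-fold lower and Eif2s3y at least 7.06-fold higher in Fv2E-PERK cells. The part of these in the Hox differences was not tested, and line and slide cannot be told apart.

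**Figure D3:**
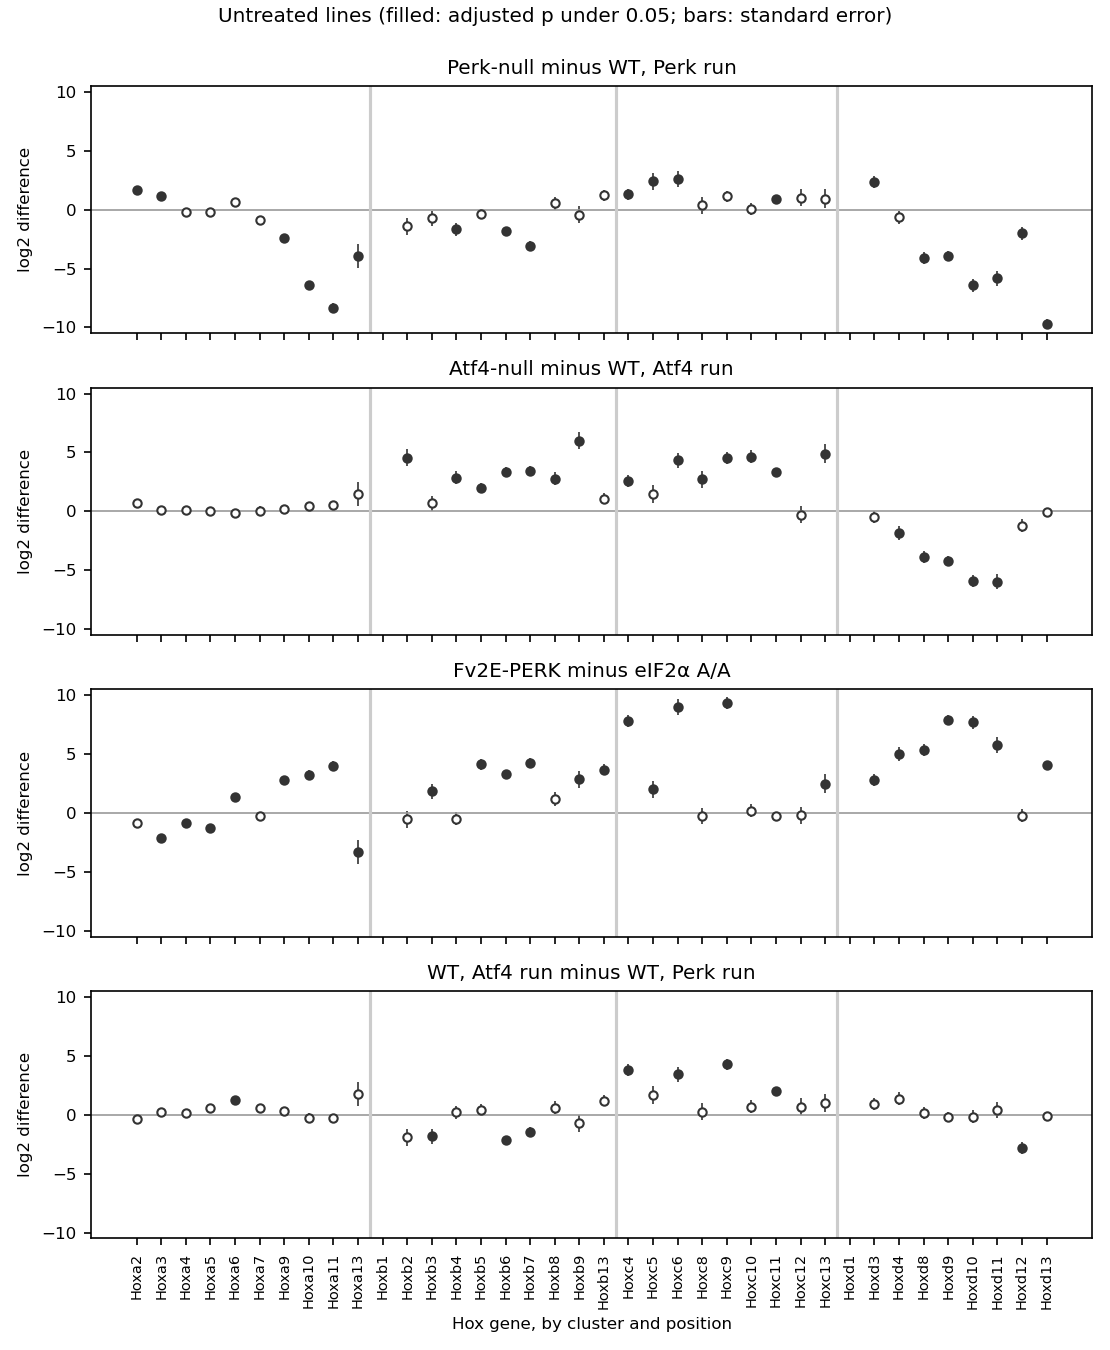
Log2 difference between untreated lines for tested Hox genes by cluster and number, in 4 comparisons named above each panel with the line subtracted second; filled points have an adjusted p under 0.05 and bars are standard errors. Where a line is not above background its point is a fitted difference and not a measured fold; of genes measured in both lines, Hoxa9 lies at -2.38 in the Perk-null panel and Hoxc9 at 4.51 in the Atf4-null panel.

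The Atf4-run wild type had 6 of the 37 Hox genes higher and 4 lower than the Perk-run wild type, with 31.7% of all tested genes called (14.3% higher and 17.4% lower), so the Hox share is near that of all genes. With normexp background correction 6 were higher and 0 lower (limma). The lines lay in different scan runs, and run and line cannot be told apart. Hoxc9 was at least 4.79-fold higher (adjusted p = 2.23e-05), Hoxc6 at least 4.23-fold (0.00135) and Hoxc4 at least 2.98-fold (5.54e-05) in the Atf4-run wild type. Hoxb6 was at least 2.95-fold lower (0.000407), Hoxd12 at least 2.54-fold (0.00121) and Hoxb3 at least 2.49-fold (0.0361). Hoxa6, measured in both, was higher by 1.29 ± 0.29 (0.00412). Hoxc11 was called with both lines under background, and Hoxb7 was at least 2.14-fold lower (0.0142). Hoxa10, Hoxa11 and Hoxd8 to Hoxd13 other than Hoxd12 were not called between these 2 lines.

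Other positional factors also differed between lines. Of 55 listed, 52 were tested, and 32 were called between Perk-null and wild-type cells (39.8% of all tested genes), 28 between Atf4-null and wild-type cells (23.8%), and 33 between Fv2E-PERK and eIF2a A/A cells (35.7%). Pitx1, which specifies the hindlimb, was not above background in Perk-null cells and read 4.97 and 5.12 in Atf4-null cells, 3.52 and 3.86 in the Atf4-run and 2.96 and 3.07 in the Perk-run wild type. Fv2E-PERK and eIF2a A/A cells did not have it above background either. It was at least 157-fold lower in Perk-null cells than in their wild type (adjusted p = 2.17e-10). Tbx4, another hindlimb factor, read 2.42 and 2.08 in Atf4-null cells and 0.34 and 1.73 in the Atf4-run wild type, and was not above background elsewhere, the Perk-run wild type included. Tbx5, the forelimb factor, read -1.06 and -1.24 in Atf4-null cells and -0.15 and -0.06 in the Perk-run wild type, and was above background on 1 array each of the Atf4-run wild type and eIF2a A/A cells. The 3 lines with Pitx1 were the 3 with the highest Hoxd13 and Hoxa11. Alx1 and Pax3, known from the neural crest of the face and from muscle precursors, were highest in Perk-null cells, at means of 4.25 and 3.30, and next in the Perk-run wild type, at 2.51 and 1.81. Alx1 was not above background in Fv2E-PERK or eIF2a A/A cells, and Pax3 was not above background in Fv2E-PERK cells and -3.30 in eIF2a A/A cells.

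Most genes that flank the clusters had narrow ranges over the lines. Hibadh and Skap2, next to the A cluster, had line means of 3.07 to 3.63 and 2.70 to 3.48. Mtx2 beside the D cluster lay between 2.83 and 3.98, and Copz1 near the C cluster between 5.22 and 6.06. The median range of the 13 neighbours listed was 1.05 log2 units, against 3.42 for the 55 other positional factors and 5.49 for the Hox genes. Skap1, beside the B cluster, and Calcoco1, near the C cluster, had the widest ranges of the neighbours, at 3.33 and 2.73. Evx1 and Evx2, the homeobox genes at the 5′ ends of the A and D clusters, were not above background in any line. Cdx2 and Cdx4, which drive Hox genes in the early embryo, were not either.

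Among cofactors and regulators the ranges were mixed. The 9 TALE genes, whose PBX, MEIS and PREP proteins bind DNA with Hox proteins, had a median range of 1.82, above the 1.29 of all named genes. Their widest ranges were those of Pknox2, at 5.75, and Pbx4, at 3.78, and both genes were lowest in eIF2a A/A cells. The 18 genes of retinoic acid metabolism and its receptors, a signal that acts on Hox genes in the embryo, had a median range of 2.67. Crabp1, a retinoic acid binding protein, was the widest of these, with means of 6.44 in the Perk-run wild type and -6.15, not above background, in Fv2E-PERK cells. Meis1 and Meis2, known from the proximal limb, averaged -0.12 and -0.55 in Perk-null cells and 2.62 and 2.27 in eIF2a A/A cells, the highest of the lines. Meis1 was lower by 1.14 and Meis2 by 1.58 log2 units in Perk-null cells than in their wild type (adjusted p = 1.01e-05 and 4.97e-06). The 24 Polycomb genes, among them the H3K27 methyltransferase Ezh2 at 2.76 to 3.52, had a median range of 0.83 log2 units, and the 13 trithorax, MLL and demethylase genes 0.82. Bmi1, a subunit of Polycomb repressive complex 1, was lower by 1.55 log2 units in Perk-null cells (0.000227).

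**Figure D4:**
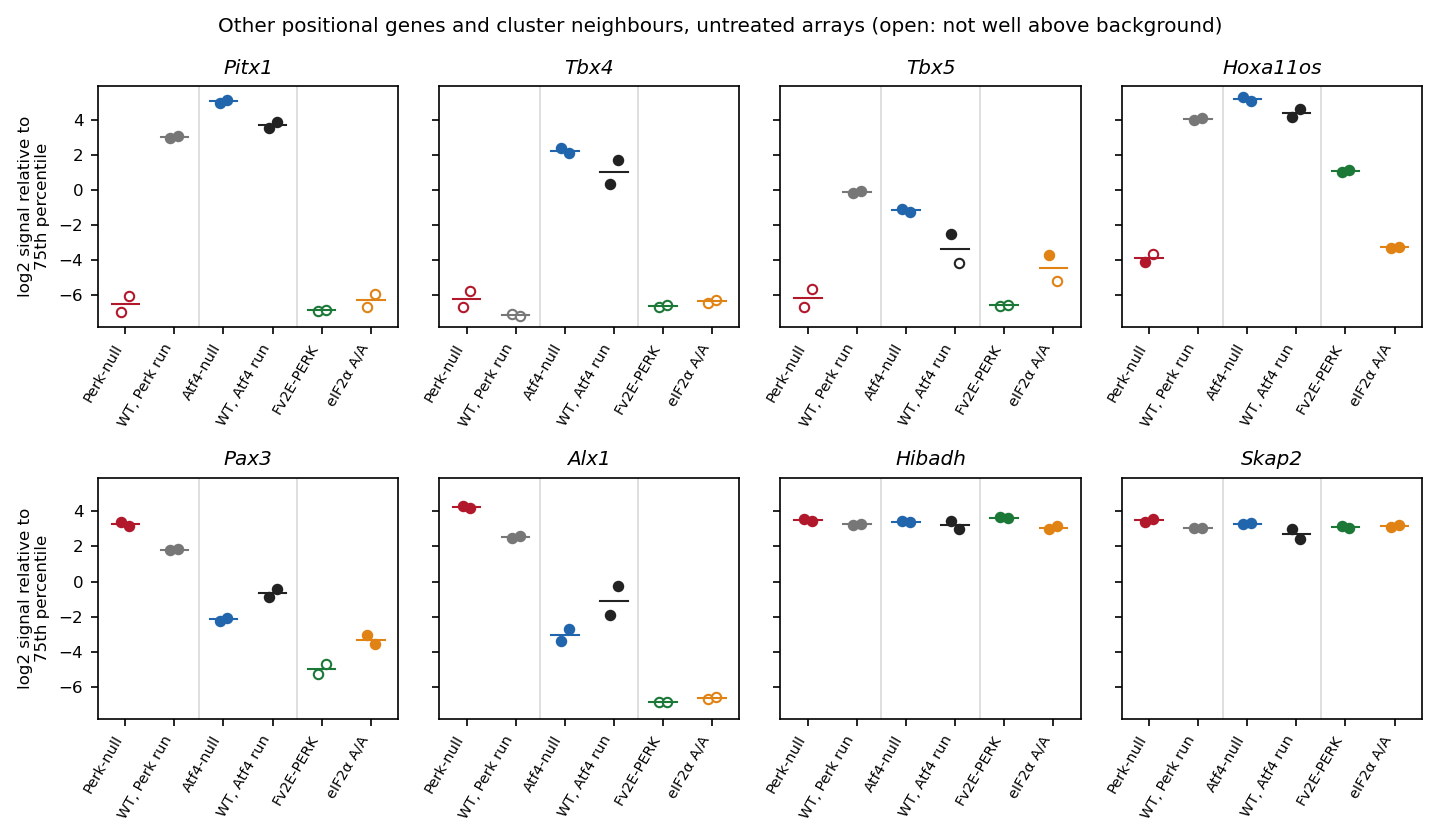
Log2 signal relative to the array's 75th percentile for limb and neural crest factors, Hoxa11os and 2 genes flanking the A cluster (Hibadh, Skap2) on the 12 untreated arrays; points are arrays, bars the mean of 2, and open points are not well above background. Pitx1 is at 2.96 or more in Atf4-null cells and both wild types, while Hibadh has line means of 3.07 to 3.63.

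Tunicamycin or AP moved few Hox genes in the fit of all arrays, and the line pattern was kept. The treated and untreated Hox profiles of 1 line correlated at 0.913 to 0.995 across the 39 genes. Of the members above background on both untreated arrays, 7 of 8 in Perk-null, 20 of 26 in Atf4-null, 15 of 18 in Atf4-run wild-type, 20 of 20 in Perk-run wild-type, 31 of 31 in Fv2E-PERK and 15 of 16 in eIF2a A/A cells were above background on both treated arrays. In Atf4-null cells Hoxa4, Hoxa5, Hoxc5 and Hoxc8 were missed on tunicamycin replicate 1 only, the array with the lowest 75th percentile. Members off both treated arrays but on both untreated ones were Hoxc4 and Hoxc9 in the Atf4-run wild type and Hoxb5 and Hoxb8 in Atf4-null cells. The reverse held for Hoxb6 in the Atf4-run and Hoxb9 in the Perk-run wild type. The treatments acted, since Ddit3, which encodes the stress factor CHOP, was higher by 1.27 in Perk-null, 3.47 in Atf4-null, 1.13 in eIF2a A/A and 4.67 in wild-type cells with tunicamycin and by 2.32 in Fv2E-PERK cells with AP.

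In wild-type cells 4 Hox genes were higher and 2 lower after tunicamycin, 6 of 37 in a comparison that called 39.7% of all tested genes (22.1% higher and 17.6% lower). The Hox share was below that of all genes, but the 37 include members above background only in other lines. Of the 39 members, 18 in the Atf4-run and 20 in the Perk-run wild type were above background on both untreated arrays. The lower share is therefore not read as a weaker response. Quantile normalization gave 3 higher and 3 lower. In the Atf4-run wild type alone 4 were higher and 5 lower (36.5% of all tested genes called, 20.0% higher and 16.5% lower), and 2 of the lower, Hoxb4 and Hoxb7, were not above background in either state. In the Perk-run wild type 2 were higher and 1 lower (20.7% called, 11.9% higher and 8.82% lower). With scan session as a block, an alternative chosen after seeing the data, the pooled response had 6 higher and 5 lower. In the Atf4 run each session held only 1 treatment, so that fit leaves the spread between sessions out of the error of a response. Hoxb9 had a large response in these cells. It read -4.73 and -2.23 with tunicamycin and -6.87 and -4.73 untreated in the Atf4 run, and -1.82 and -2.01 with tunicamycin and -4.87 and -5.32 untreated in the Perk run. No untreated wild-type array and 3 of the 4 treated ones were above background. Within the Perk run the rise was at least 8.62-fold (adjusted p = 0.00591). In Perk-null cells Hoxb9 was not above background with or without tunicamycin, and the fitted difference of responses, -4.12 ± 1.02 (0.0223), therefore depends on values under background. In eIF2a A/A cells it read -2.74 and -2.78 with tunicamycin and -2.28 and -2.41 untreated. Their response, a fall, lay below the mean wild-type response by 3.16 ± 0.88 (limma, adjusted p = 0.0194). This difference, too, depends on wild-type values under background. The comparison crosses scan runs, was added after the responses were seen, and called 22.0% of all tested genes. Hoxa7 was higher by 0.70 ± 0.25 (0.0413) and Hoxd8 by 1.14 ± 0.35 (0.0165) over both wild types, but within the Perk run neither was called, with 0.37 and 0.82. Hoxd8 read -0.04, -0.81, -1.36 and -1.13 on the treated and -1.41, -2.38, -2.08 and -2.04 on the untreated wild-type arrays, so every treated array of a run was above its untreated ones. Hoxd9 moved apart in the 2 runs, with -3.33 and -4.11 treated and -2.38 and -2.82 untreated in the Atf4-run wild type, and -1.41 and -1.53 treated and -2.27 and -2.58 untreated in the Perk-run wild type. Hoxc4 read -6.59 and -6.67 treated and -3.45 and -3.53 untreated in the Atf4-run wild type, and Hoxc9 -6.54 and -4.81 treated and -2.65 and -2.96 untreated. Both fell there, by at least 2.09-fold and at least 3.37-fold (0.000196 and 0.000443), and were not above background in the Perk-run wild type with or without tunicamycin. In the Atf4 run the treated arrays shared 1 slide and the untreated ones another slide, so there treatment and slide cannot be told apart, whereas in the Perk run all wild-type arrays were on 1 slide.

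In the mutant lines the counts were small in the fit of all arrays. That fit shares 1 spread over all arrays, and replicates varied least in the run of Fv2E-PERK and eIF2a A/A cells. Fits of the arrays of 1 genotype alone, given at the end, called more Hox genes in those 2 lines. They called fewer in Atf4-null cells. In the fit of all arrays Perk-null cells had 0 of 37 Hox genes called by limma (3.19% of all tested genes called). There 3 had an unadjusted p under 0.05. Only 8 of the 39 members were above background on both untreated Perk-null arrays, and 26 were on neither. Members under background there could show only a gain. Fv2E-PERK cells with AP had 0 called (5.76% of all tested genes), with 0 at an unadjusted p under 0.05. In eIF2a A/A cells 1 was called (6.19%). Atf4-null cells had 3 higher and 1 lower (31.5% of all tested genes called, 13.3% higher and 18.2% lower), and the split turned with the scaling, to 0 higher and 8 lower with quantile normalization and 10 higher and 3 lower with normexp. With scan session as a block it was 5 higher and 5 lower. The lower gene, Hoxa5, differed by -0.80 ± 0.26 (adjusted p = 0.03) and was above background on 1 of 2 treated and both untreated arrays. With normexp its difference was 0.032, and it was not called without Atf4-null untreated replicate 2 or tunicamycin replicate 1. Hoxc12 read -2.33 and -3.84 with tunicamycin and -4.37 and -5.91 untreated in Atf4-null cells, higher by 2.06 ± 0.72 (0.0418), and 1 untreated array was above background. Hoxa2 was above background on 1 array of each state, and Hoxd9 on none, and neither is given a fold. Responses of Perk-null cells differed from their wild type's for 2 Hox genes (8.06% of all tested genes called, 3.97% lower), Hoxb9 among them, both with the smaller response in Perk-null cells. Responses of Atf4-null cells differed for 6 (33.3% called, 13.3% higher and 20.0% lower), among them lower for Hoxa7, Hoxb6 and Hoxb9 and higher for Hoxc4 and Hoxd9. Quantile normalization gave 4 higher and 4 lower for these responses, and the session block, within which each Atf4-null array has a wild-type array of its treatment, 6 higher and 5 lower. The responses of the 2 wild types differed for Hoxc4, Hoxc9 and Hoxd9, each lower in the Atf4 run (7.77% called, 4.77% lower), and the session block called 2 higher and 7 lower. The comparisons with wild-type responses share their wild-type arrays with the wild-type comparison itself.

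**Figure D5:**
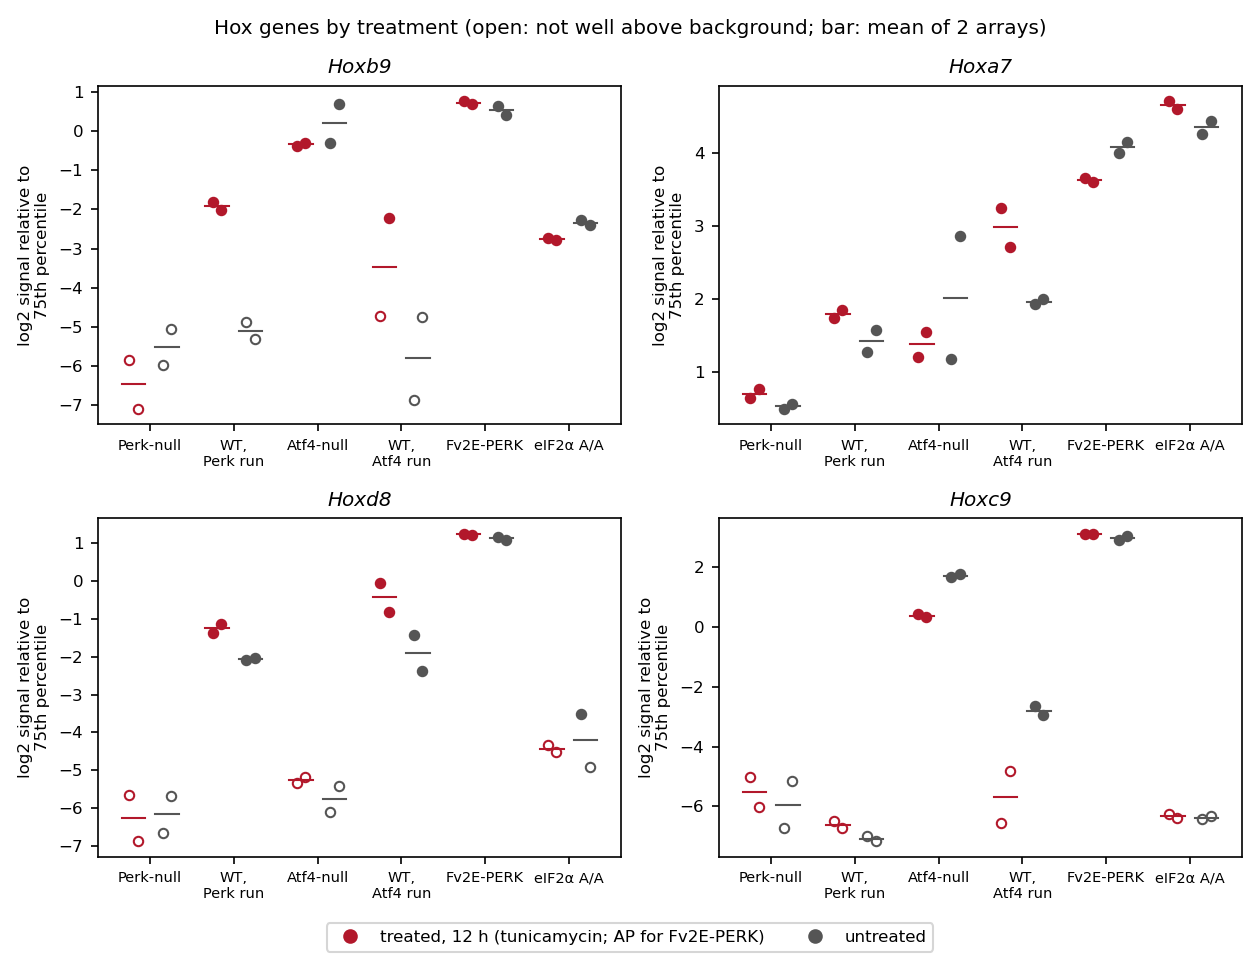
Log2 signal relative to the array's 75th percentile for Hoxb9, Hoxa7, Hoxd8 and Hoxc9 on treated arrays (red, tunicamycin, or AP for Fv2E-PERK, 12 h) and untreated arrays (grey) of each line; points are arrays, bars the mean of 2, and open points are not well above background. Hoxb9 is at -2.23, -1.82 and -2.01 on the 3 treated wild-type arrays above background, and Hoxc9 is not above background on the treated arrays of the Atf4-run wild type.

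Of the retinoic acid genes, 10 of the 16 tested were called in wild-type cells with tunicamycin, 2 higher and 8 lower. In this comparison 39.7% of all tested genes were called, 22.1% higher and 17.6% lower. Rarb, a retinoic acid receptor that is itself a target of retinoic acid, fell to between -5.50 and -4.18 on the treated wild-type arrays, against -2.23 to -1.09 on the untreated ones, a difference of -3.34 ± 0.17 (adjusted p = 2.89e-09), with 1 of the 4 treated arrays above background. No gene of the list was called by limma in Perk-null cells, where 0 had an unadjusted p under 0.05, or in eIF2a A/A cells, where 3 had. Those comparisons called only 3.19% and 6.19% of all tested genes, so a lack of calls among 16 genes does not set the list apart. Of the TALE genes, 3 were higher and 3 lower in wild-type cells with tunicamycin, Pknox2 by -1.80 ± 0.29 (0.000193) and Meis1 by -0.84 ± 0.09 (5.88e-06). Of the other positional factors, 1 was higher and 21 lower of 52 tested, where 22.1% of all tested genes were higher and 17.6% lower. Among them Meox2 differed by -3.37 ± 0.48 (limma, adjusted p = 6e-05), Tbx3 by -1.85 ± 0.19 (2.88e-06) and Prrx2 by -1.71 ± 0.15 (6.69e-07). Meox2 was not above background on the treated arrays of the Atf4-run wild type, so its difference depends in part on values under background. Fibroblast markers moved the same way in these cells, 10 lower and 1 higher of 15, and their part in the result was not tested.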

How the data were processed

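The submitters' processing notes and the file headers name Agilent Feature Extraction 10.7.1.1 for the spots. The deposited processed signal is a linear intensity after background subtraction, per the file headers. The authors' deposited log2 values, centred per probe from a baseline that is not given, differed from these by at most 0.001 for 99.3% of values once array shifts were removed, and served as an alternative (column medians -0.32 to 0.49). Each array's log2 intensity was set relative to its 75th percentile. Probes were named through RefSeq accessions: of 55681 probes, 26631 matched 1 symbol and 29050 none. A gene was tested where some group of a scan run had it well above background on all arrays (14880 tested, 5290 not). 1 limma 3.58.1 model (R 4.3.3) with 12 means, line by treatment and the wild types parted by scan run, was fitted to 24 arrays with 12 residual degrees of freedom. Calls were two-sided at an adjusted p under 0.05, Benjamini-Hochberg over all genes tested. The code was tested on simulated data.

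The members and gene lists were chosen with earlier results of these data known. Counts cover all members, some results of single genes are not reported here, and per-array values are given for the 16 with the widest range of untreated line means and for those called with a 2-fold response, and other lists give at most 4 called genes with the largest differences, plus genes that define limb identity or a cell type, those with the widest ranges in a list and Ezh2, chosen after their values were seen. Alternatives were quantile normalization, normexp, other filters, the mean of probes, blocks, other fits, the authors' values and leaving out each array. The number of arrays limits precision, and the median SD of replicates was 0.252, 0.117 and 0.0744 log2 units in the Atf4 run, the Perk run and the run of the other 2 lines. No spot was saturated. No gene coordinates other than those of the promoter windows are given.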

Additional observations from a re-analysis of the deposited data

Results flagged for a closer look

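On the wild-type tunicamycin arrays, Hoxb9 at -4.73 on replicate 1 and Hoxc13 at -3.17 on replicate 2 lay further from the other 3 arrays than Dixon's test allows at 95%. Chance gives about 1 such array in 20 groups. The test took the arrays of both wild types as 1 group, so it does not compare replicates of a single line. Hoxb9 on replicate 1, and Hoxc13 on the other 3 arrays, were not above background.

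Treatment responses differed between lines, by the test of the difference, for these Hox genes. Perk-null minus wild-type responses included -4.12 for Hoxb9. Atf4-null minus wild-type responses included -1.66 for Hoxa7, -1.51 for Hoxb6, -2.86 for Hoxb9, 3.19 for Hoxc4 and 2.72 for Hoxd9. The response of the Atf4-run wild type minus that of the Perk-run wild type was -3.57 for Hoxc4, -3.33 for Hoxc9 and -2.07 for Hoxd9. Every value behind the difference of Hoxa7, and behind that of Hoxd9 between the wild types, was above background, and the others given rest in part on values that were not. For Hoxa7 the untreated Atf4-null arrays disagreed, at 1.17 and 2.86, against 1.20 and 1.55 with tunicamycin.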

How the results depend on the processing

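Of 99 called gene and comparison pairs with 3393 alternative values, 3154 kept direction and call, 236 kept direction but missed the threshold, and 3 reversed: Hoxa5 in the Atf4-null response with normexp (0.032) and, within the Perk run, Hoxc4 (0.43) and Hoxc9 (0.47) in the wild-type response. Numbers of Hox genes called moved by over 1.5 times as follows. Quantile normalization gave 8 for the Atf4-null response and 5 for the difference between wild-type responses, normexp 13 and 0 for these and 6 between the wild types. Testing only genes above background on all arrays left 5 Hox genes, of which 4 were called for Perk-null, 0 for Atf4-null (limma), 4 for Fv2E-PERK and 2 between the wild types untreated, 2 for the wild-type and 1 for the Atf4-null response, and 1, 3 and 0 for the differences in response of Perk-null, Atf4-null and the wild types. The mean of all probes gave 0 for the eIF2a A/A response. The replicate block, which changed no other count of calls by that much, gave 1 for the Perk-null response. Within the Perk run the wild-type response had 3. With only the arrays of 1 genotype, the responses had 0 (Atf4-null), 4 (eIF2a A/A) and 10 (Fv2E-PERK). With scan session as a block, an alternative chosen after seeing the data that also crosses the Perk-null numbers, the wild-type response had 11, the Atf4-null response 10, and the differences 11 (Atf4-null) and 9 (wild types). Except where fewer genes or arrays were used, the cause was not tested.

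Leaving out 1 array at a time gave 17 to 22 calls for Perk-null, 18 to 20 for Atf4-null, 22 to 27 for Fv2E-PERK and 8 to 13 between the wild types, and for the responses 4 to 8 (wild type), 0 to 2 (Perk-null), 3 to 8 (Atf4-null), 0 to 2 (eIF2a A/A) and 0 to 0 (Fv2E-PERK). Differences in response had 1 to 3 (Perk-null), 4 to 8 (Atf4-null) and 2 to 6 (wild types). A lone array was assumed to vary like the other groups. The Perk-null response had 1, 2 and 1 without untreated replicate 1, untreated replicate 2 and tunicamycin replicate 1. The Atf4-null response had 8 without its untreated replicate 1 and 7 without either Perk-null tunicamycin array, which changes the shared spread. The eIF2a A/A response had 2 without untreated replicate 1 and 0 without tunicamycin replicate 2. The Perk-null difference had 1 without any 1 of the 4 Perk-run wild-type arrays or Perk-null tunicamycin replicate 2, and the difference between wild types 6 without Atf4-run untreated replicate 1 of the wild type or either untreated Atf4-null array. Same-numbered Atf4-null and wild-type arrays of a treatment shared a scan session and deviated together (correlation 0.28 untreated, 0.46 treated), whereas the Perk-null numbers ran crosswise (-0.49), and other pairs lay between -0.029 and 0.069. Genes near background limit what can be said: signals there are bounds.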
